A study of Mus musculus with 13 samples.

Results

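Skeletal muscle genes were followed across arrays of mouse sciatic nerve, a tissue that runs between and into limb muscles. The set was a fixed list of 40 symbols covering the sarcomere, the calcium release and uptake machinery, 2 muscle energy genes and 2 myogenic regulators. Rows for 38 of the 40 were found among the 15437 genes tested, and Myl1 and Casq1 were not analysed here. All mice were of the BKS strain and 24 weeks of age, and no treatment is named in the labels. The db/db group (n = 6, samples 110, 111, 112, 409, 410 and 411) carried the db allele, a mutation of the leptin receptor, on both chromosomes and modelled type 2 diabetes. The control group (n = 7, samples 101, 103, 104, 105, 106, 404 and 407) was db/+, so that the controls also carried the db allele. Biotin-labelled products of amplified total RNA were read on 1-colour Affymetrix arrays. The values are log2 levels made with robust multi-array averaging (RMA), in which 1 unit is a factor of 2. The labels do not say that each sample came from a separate animal, so p-values measure the spread between these samples.

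The sarcomere is the contractile unit of striated muscle. Myosin motors of the thick filament pull on actin in the thin filament, troponin and tropomyosin on actin make the pull depend on calcium, and titin and the Z disc hold the lattice together. Calcium is released from the sarcoplasmic reticulum through the ryanodine receptor and is pumped back by SERCA enzymes. Fast and slow muscle fibres build these parts from different genes, so the isoform present tells the fibre type. Peripheral nerve itself has no sarcomeres, and muscle fibres can border a nerve where it is dissected.

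The arrays carried nerve transcripts: the mean log2 level of 7 measured Schwann cell markers was 10.77 to 11.87 in db/+ and 9.99 to 11.25 in db/db. Array medians over all genes were 8.63 to 8.71, and correlations between arrays were 0.894 to 0.989, with 0 identical pairs. Samples 101, 103, 104 and 106 stood apart by neuronal cell body and axon markers (12 of 13 measured), whose mean was 11.55 to 12.28 there and 6.54 to 8.52 on the other 9 arrays. Of the 12 neuronal markers, 11 were lower in db/db by limma at an adjusted p of 0.05, where 11.7% of all genes were. Without those 4 arrays 4 of the 12 were lower, against 6.78% of all genes. The sample numbers form a series from 101 to 112 and another from 404 to 411, and the labels do not say what the numbers mark. Calls on members that these 4 arrays or the number series change are given with and without them.

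Muscle transcripts differed greatly in amount from one nerve array to the next, in both genotypes. The mean log2 level of 34 members, leaving out the 4 that other cells of the nerve are also known to express (Tpm1, Tpm2, Atp2a2 and Pvalb), is called the muscle index here. It was 10.79 on db/+ 101 and 10.13 on db/db 112, the highest array of each genotype, and 5.81 on db/+ 106 and 5.83 on db/db 409, the lowest of each. Between these lay db/+ 404 at 8.79, 407 at 8.62, 103 at 8.48, 105 at 6.89 and 104 at 6.60. Among db/db arrays, 411 was at 9.31, 111 at 6.81, 110 at 6.45 and 410 at 6.31. The groups overlapped over nearly their whole range, with a mean of 7.996 ± 1.69 (SD, n = 7) in db/+ and 7.47 ± 1.79 (SD, n = 6) in db/db. In RNA from whole tissue, fewer muscle cells and less RNA per cell cannot be told apart.

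The members varied more than almost any other genes in the data. The median SD within genotype was 2.10 log2 units over the 38 members and 0.28 over all 15437 genes. Of the members, 33 lay above the SD of 0.91 that marks the top 5% of all genes. Myh1 and Myl2, the myosin heavy chain of fast IIx fibres and the slow regulatory light chain, ranked 1 and 2 of 15437. Between the lowest and the highest array, 30 members differed by more than 4 log2 units and 21 by more than 6. The 5 members below that SD were Tpm1, Tpm2, Atp2a2, Myod1 and Myog.

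The highest value of each of the 38 members fell on 1 of 5 arrays. Sample 101 held the maximum of 18 members, 411 of 11, 112 of 6, 404 of 2 and 407 of 1. On 101 all 38 members were above their own median over the 13 arrays, on 112 36 were, on 404 32, on 103 30, on 411 28 and on 407 26. On each of the other 7 arrays 1 to 10 members were above their median, and 409 held the minimum of 15. High arrays thus occurred in both genotypes and in both number series. The difference between the 3′ and 5′ probe sets of actin, a measure of RNA integrity, had r = -0.02 with the muscle index (n = 13, not centred by genotype). It did differ between the genotypes, at 1.03 ± 0.31 (SD, n = 7) in db/+ and 0.68 ± 0.18 (SD, n = 6) in db/db, and its part in the genotype differences of the members was not tested.

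**Figure D1:**
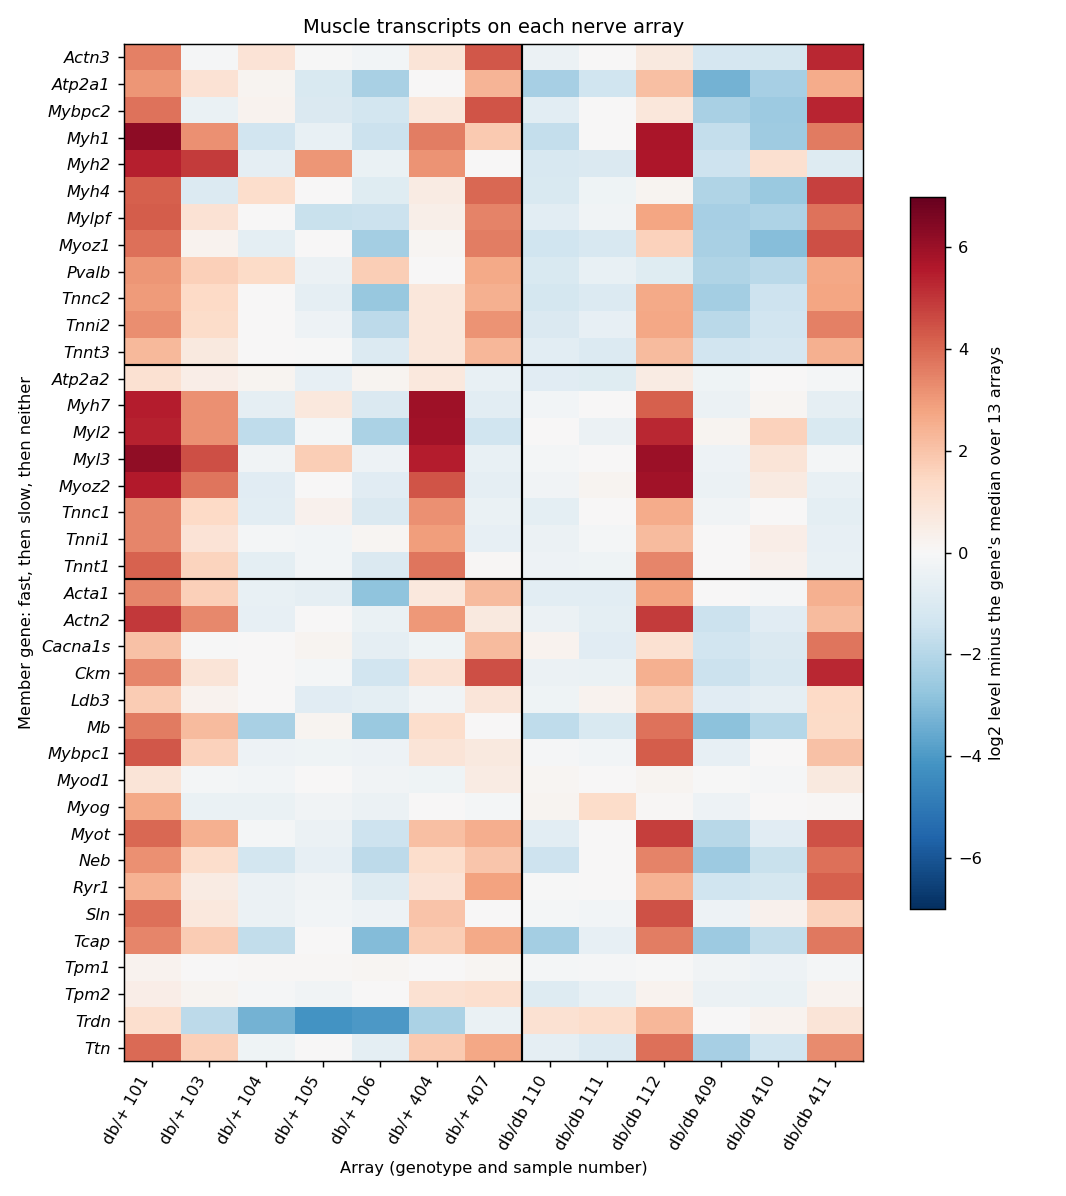
Each row is 1 of 38 members and each column 1 of 13 arrays, 7 db/+ to the left of the vertical line and 6 db/db to the right. Colour gives the log2 level minus the gene's median over the 13 arrays, red above and blue below. Fast members are at the top, slow members in the middle and the rest below. Columns 101 and 112 are red in nearly all rows. Column 404 is darkest in the slow rows and in Myh1 and Myh2, and columns 407 and 411 are red in most fast rows and pale or blue in the slow ones.

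Thick filament genes had the widest swings. Myh1 was at 3.65, 7.02 and 11.42 (lowest, median, highest) in db/+ and at 2.67, 4.35 and 10.91 in db/db, with the highest value on 101 and the next on 112. The group means of Myh1 were 6.81 ± 2.92 (SD, n = 7) and 5.77 ± 3.34 (SD, n = 6), a difference of -1.04 (SE 1.58) in db/db, with an adjusted p of 0.663 by limma. The groups of Myh1 overlapped almost completely. All 9 measured thick filament members had a negative difference, from -1.82 for Myh2 to -0.02 for Mybpc1, and 0 passed the adjusted p of 0.05 in limma, which 25.1% of all 15437 genes passed. The smallest unadjusted p among these 9 was 0.198, for Myh2, which encodes the IIa heavy chain of fast oxidative fibres.

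The fast and the slow heavy chain were high on different arrays. Myh4, the IIb heavy chain of the fastest fibres, was at 11.79 on db/db 411, 11.17 on db/+ 101 and 10.99 on db/+ 407, and at 4.40 to 8.21 on the other 10. Myh7, the slow heavy chain, was at 11.79 on db/+ 404, 11.35 on db/+ 101, 10.09 on db/db 112 and 9.07 on db/+ 103, and at 4.86 to 6.62 on the other 9. Sample 101 was thus high in both, 411 and 407 in Myh4 only and 404, 112 and 103 in Myh7 only. Among the light chains, Mylpf, the fast regulatory chain, reached 12.36 on 407 and 12.69 on 411, where the slow chain Myl2 was at 5.32 and 5.64. On 404 Myl2 was at 12.59 and the slow essential chain Myl3 at 11.08, with Mylpf at 9.30. Unlike Myh4, Mylpf was also high on 112, at 11.64.

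The troponin C partners, in the thin filament, divided on 407 and 411, and in the other direction on 404, but not on 112. Tnnc2, the calcium sensor of fast fibres, was at 13.50 on db/+ 101, 13.28 on db/db 411, 13.16 on db/db 112 and 13.002 on db/+ 407, and at 7.87 to 11.93 elsewhere. Tnnc1, its slow partner, was at 12.82 on 101, 12.62 on 404 and 12.04 on 112, but at 8.94 on 407 and 8.76 on 411. On 404 Tnnc2 was at 11.35, and Tnnc2 minus Tnnc1 was the lowest of the 13 arrays there (-1.27). The 250 bases upstream of the starts of Myh4, Myh7, Tnnc2 and Tnnc1 are printed. Of 5 fast and slow partner pairs, these were the ones with a listed window for both genes. Sequences and coordinates are from RefSeq on GRCm38.p6: Myh4 from chr11:67237562-67237811 on the plus strand, Myh7 from chr14:54994627-54994876 on the minus strand, Tnnc2 from chr2:164779735-164779984 on the minus strand and Tnnc1 from chr14:31208062-31208311 on the plus strand. Each is read in the direction of its gene, Myh7 at the first of 2 listed starts, and capitals mark every CANNTG, the E-box bound by myogenic factors such as MyoD.
Myh4: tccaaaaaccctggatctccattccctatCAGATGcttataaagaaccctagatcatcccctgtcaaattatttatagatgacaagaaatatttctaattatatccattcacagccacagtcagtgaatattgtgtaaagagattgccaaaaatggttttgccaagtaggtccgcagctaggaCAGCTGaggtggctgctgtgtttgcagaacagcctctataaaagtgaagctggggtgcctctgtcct
Myh7: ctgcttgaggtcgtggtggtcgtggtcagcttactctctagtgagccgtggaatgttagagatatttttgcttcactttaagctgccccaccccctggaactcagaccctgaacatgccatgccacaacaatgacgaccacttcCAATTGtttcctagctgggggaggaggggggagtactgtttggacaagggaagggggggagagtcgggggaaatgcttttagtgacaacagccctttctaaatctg
Tnnc2: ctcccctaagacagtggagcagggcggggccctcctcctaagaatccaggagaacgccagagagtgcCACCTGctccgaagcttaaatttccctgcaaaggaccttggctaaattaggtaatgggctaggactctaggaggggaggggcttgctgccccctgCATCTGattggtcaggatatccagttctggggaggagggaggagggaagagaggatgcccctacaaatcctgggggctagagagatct
Tnnc1: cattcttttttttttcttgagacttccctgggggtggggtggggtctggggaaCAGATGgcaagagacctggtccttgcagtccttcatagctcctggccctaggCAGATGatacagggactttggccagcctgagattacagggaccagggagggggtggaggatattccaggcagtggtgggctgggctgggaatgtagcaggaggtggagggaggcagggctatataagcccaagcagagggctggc
These windows hold 2, 1, 2 and 2 copies of CANNTG in that order, so that the count did not separate the fast genes from the slow ones.

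Windows of 250 bases were found for 29 of the 40 listed genes. CANNTG, which reads the same on both strands, was in 24 of these 29 (82.8%) and in 66.0% of 27025 gene windows of the same length. CAGCTG, which is 1 form of CANNTG and so overlaps it, was in 12 (41.4%) against 12.8% of all windows. The MEF2 box, sought on both strands, was in 5 (17.2%) against 3.01%, and the CArG box in 4 (13.8%) against 1.4%. Myh4 was the only 1 of the 4 printed windows with a CAGCTG (1), a MEF2 box (1) or a CArG box (1). These are matches of letters within short windows and were not tied to the levels.

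Among the 10 thin filament members, Neb, the giant protein that spans the length of the actin filament, had the highest SD. It was at 3.90, 6.99 and 8.93 in db/+ and at 3.18, 5.01 and 9.62 in db/db (lowest, median, highest), with the highest values on 411, 112 and 101. Neb averaged 6.30 ± 1.84 (SD, n = 7) and 6.04 ± 2.75 (SD, n = 6), and the difference of -0.26 (SE 1.17) had an adjusted p of 0.892 by limma. Acta1, the actin of skeletal muscle, was at 6.91, 10.49 and 13.14 in db/+ and at 8.97, 9.69 and 12.55 in db/db. Its difference of 0.04 (SE 0.96) was the nearest to 0 of the thin filament members. The 6 troponin genes had differences of -0.71 to -0.65 with ranges of 3.82 to 5.63 over the arrays.

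Tropomyosins stood apart from the rest of the thin filament, because their ranges were small. Tpm1, which is also made in smooth muscle and many other cells, was the 1 member that fell in db/db. It was at 12.77, 12.87 and 13.02 in db/+ and at 12.41, 12.64 and 12.72 in db/db (lowest, median, highest), and no db/db array reached the lowest db/+ array. Group means were 12.87 ± 0.09 (SD, n = 7) in db/+ and 12.60 ± 0.12 (SD, n = 6) in db/db, a difference of -0.27 (SE 0.08, adjusted p = 0.0221 by limma). The exact two-sided permutation p was 0.00117, the smallest that 7 against 6 arrays can give. Tpm1 was the only member whose groups did not overlap, against 9.68% of all genes in either direction and 3.51% lower in db/db.

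The fall of Tpm1 was small and near the threshold. Its adjusted p was 0.0522 without 409 and 0.0503 without 410, and 0.148 without db/+ 101, 103, 104 and 106, where the difference was -0.24. It was 0.166 in arrays 101 to 112 alone and 0.167 in arrays 404 to 411 alone, and 0.172 with the neuronal mean as a covariate. Tpm2, the beta tropomyosin of slow fibres and smooth muscle, was at 11.32, 11.71 and 12.71 in db/+ and at 10.63, 11.09 and 11.81 in db/db. Its difference of -0.67 (SE 0.27) had an adjusted p of 0.0825 by limma, and 0.0224 with the number series as a block (-0.80). Taken by series, Tpm2 had -1.32 in the arrays from 404 on, where the adjusted p was 0.0431, and -0.47 in those up to 112, where it was 0.246. Among 9 smooth muscle and pericyte markers, limma called Myh11 (-1.13), Cnn1 (-1.59) and Smtn (-0.77) lower and Synpo2 (3.03) higher in db/db, which is 4 of 9 against 25.1% of all genes. Without the 4 neuron-rich arrays, Myh11 (-1.27, adjusted p = 0.109) and Cnn1 (-2.06, adjusted p = 0.0761) did not pass, though their differences were larger. Tagln, at -0.45 over all arrays (adjusted p = 0.0597), was then called lower at -0.72 (adjusted p = 0.0337). In that fit 3 of the 9 passed, against 12.9% of all genes. The mean of the 9 markers was 7.99 to 9.90 in db/+ and 8.04 to 8.89 in db/db, and its part in the tropomyosin differences was not tested.

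Z disc members varied with the fibre types too. Myoz2, the slow fibre calsarcin that ties alpha-actinin to calcineurin, had the highest SD of these 8. It was at 4.46, 5.25 and 10.80 in db/+ and at 4.75, 5.21 and 11.15 in db/db, and was above 9 only on 112, 101, 404 and 103. Group means were 6.89 ± 2.80 (SD, n = 7) in db/+ and 6.17 ± 2.48 (SD, n = 6) in db/db, and the difference of -0.72 (SE 1.35) had an adjusted p of 0.729 by limma. Myoz1, the fast fibre calsarcin, was instead at 11.33 on 411, 10.66 on 101 and 10.39 on 407, and at 3.82 to 8.43 elsewhere. Actn3, the alpha-actinin of fast fibres, had the same 3 highest arrays at 12.44, 10.70 and 11.56, while Actn2, the form of all fibres, was highest on 101 (10.54) and 112 (10.51).

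The remaining 4 genes of this role are built into both fibre types. Ttn, the molecular spring titin, was at 5.18, 7.54 and 9.81 in db/+ and at 3.55, 5.09 and 9.74 in db/db. Tcap, the titin cap, was between 4.82 and 11.58, Myot, the actin bundler myotilin, between 3.90 and 10.69, and Ldb3, a Z disc scaffold, between 7.27 and 9.82. None of the 8 passed limma at either the adjusted or an unadjusted threshold of 0.05, and 7 of the 8 differences were negative.

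Calcium handling held the 1 member that rose. Trdn encodes triadin, which links the calcium store protein calsequestrin to the ryanodine receptor. It was at 5.75, 7.71 and 11.11 in db/+ and at 9.94, 10.94 and 12.29 in db/db (lowest, median, highest). In db/+ only 101 lay within the db/db range, with 407 next at 9.46, and 104, 105 and 106 were at 6.61, 5.75 and 5.92. Group means were 7.81 ± 1.96 (SD, n = 7) in db/+ and 10.91 ± 0.83 (SD, n = 6) in db/db, a difference of 3.10 (SE 0.79, 95% interval 1.40 to 4.80, adjusted p = 0.0132 by limma). The exact two-sided permutation p for Trdn was 0.00699.

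Trdn was correlated with the muscle index within each genotype, less evenly in db/db, and at different levels. Its r with the muscle index was 0.93 within db/+ (n = 7) and 0.77 within db/db (n = 6). With the mean of 39 other skeletal muscle genes as a covariate the difference was 3.26 (adjusted p = 0.00187), and it was 3.27 (adjusted p = 0.0205) without db/+ 101, 103, 104 and 106. By limma it was 3.99 in the series from 101 to 112 alone, with an adjusted p of 0.0508, and 1.75 in the series from 404 to 411 alone, with an adjusted p of 0.127. With the neuronal mean as a covariate the adjusted p was 0.0955 at a difference of 3.25. Leaving out any 1 array gave differences of 2.76 to 3.65, each still past the threshold. Other cell types of the nerve also moved with genotype. The mean of 6 adipocyte markers was 12.34 to 13.26 in db/+ and 13.39 to 13.51 in db/db, with 3 of 6 higher by limma and 1 of 6 without the 4 neuron-rich arrays. Of 8 brown adipocyte markers 4 were higher (2 without those arrays), among them Ucp1 by 4.80 (adjusted p = 2.5e-05). The other 4 did not pass, and 3 of them were negative: Zic1 (-3.72), Cox8b (-0.88) and Prdm16 (-0.44). The mean of the 8 was 6.52 to 8.07 in db/+ and 7.10 to 8.25 in db/db. Over all genes 13.4% were higher, and 6.12% without those arrays. Of 7 Schwann cell markers 4 were lower, against 11.7% of all genes, and without those arrays their lowest adjusted p was 0.0834. Their part in the level of Trdn was not tested.

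**Figure D2:**
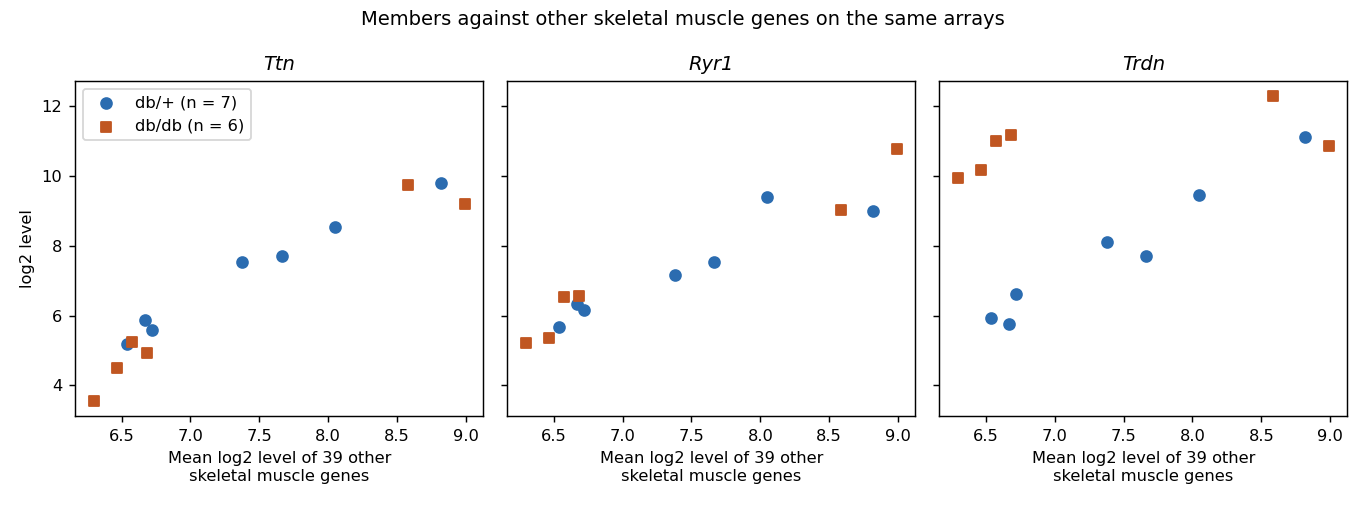
Each panel plots the log2 level of 1 member against the mean log2 level of 39 other skeletal muscle genes on the same array, for 7 db/+ (circles) and 6 db/db arrays (squares). Ttn and Ryr1 rise along the same track in both genotypes. Trdn is between 9.94 and 11.18 on the 4 db/db arrays with the lowest muscle means and between 5.75 and 6.61 on the 3 such db/+ arrays.

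No rise was called for the other genes of the calcium release site. Ryr1, the release channel that triadin binds, was at 5.68, 7.17 and 9.40 in db/+ and at 5.20, 6.55 and 10.78 in db/db, a difference of -0.08 (SE 0.93). Cacna1s, the voltage sensor of the transverse tubule, had a difference of -0.18 (SE 0.78), and Sln, a small peptide that inhibits SERCA, had 0.14 (SE 0.87). The 95% intervals ran from -2.08 to 1.92 for Ryr1, from -1.86 to 1.50 for Cacna1s and from -1.75 to 2.02 for Sln. Atp2a1, the fast SERCA pump, had the highest SD of the calcium handling genes, at 7.56, 9.99 and 12.92 in db/+ and at 6.51, 7.98 and 12.41 in db/db. Its means were 10.30 ± 1.87 (SD, n = 7) and 9.05 ± 2.49 (SD, n = 6), and the difference of -1.25 (SE 1.11) had an adjusted p of 0.432 by limma. Atp2a2, the slow and housekeeping SERCA, ranged over only 1.89 log2 units and had a difference of -0.47 (SE 0.29, adjusted p = 0.265).

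Pvalb, the calcium buffer parvalbumin of fast fibres and also of proprioceptive neurons, had the most negative difference of all members. It was at 10.04, 12.10 and 13.54 in db/+ and at 8.31, 9.49 and 13.12 in db/db (lowest, median, highest), and the db/db array next to 411 was at 9.93. Group means were 11.88 ± 1.28 (SD, n = 7) in db/+ and 9.82 ± 1.73 (SD, n = 6) in db/db, and the difference of -2.06 (SE 0.77) had an adjusted p of 0.0648 by limma. Without 411 the difference was -2.72 (adjusted p = 0.0078), and with the other muscle genes as a covariate it was -1.91 (adjusted p = 0.0289). Without the 4 neuron-rich db/+ arrays it was -1.37 (adjusted p = 0.436). By series, limma gave -2.28 (adjusted p = 0.0475) for samples up to 112 and -1.76 (adjusted p = 0.554) for those from 404 on. On 103, 104 and 106, Pvalb was at 11.77 to 12.17, while the mean fast deviation of 106, -1.18, was the third lowest of all arrays. Of the 4 proprioceptive markers, which include Pvalb, limma called Etv1 and Ntrk3 lower in db/db, as it did 11.7% of all genes. Neither passed without those 4 arrays (adjusted p = 0.262 and 0.367), where 6.78% of all genes were lower. Runx3, the remaining marker, did not pass over all arrays (-0.27, adjusted p = 0.171 by limma). It was at 5.89 to 6.18 on the 4 neuron-rich arrays and at 6.15 to 6.56 on the other db/+ arrays. The part of neuronal RNA in the Pvalb values was not tested further.

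The energy and oxygen genes kept to the general pattern. Mb, the oxygen store myoglobin of oxidative fibres, was at 5.64, 8.42 and 11.85 in db/+ and at 5.35, 6.80 and 12.01 in db/db. Its means were 8.56 ± 2.26 (SD, n = 7) and 7.79 ± 2.51 (SD, n = 6), and the difference of -0.77 (SE 1.21) had an adjusted p of 0.674 by limma. Ckm, muscle creatine kinase, was at 5.03, 7.27 and 10.88 in db/+ and at 4.87, 5.93 and 11.64 in db/db, with a difference of -0.48 (SE 1.19). Mb was highest on 112 and 101, and Ckm on 411 and 407.

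The myogenic regulators moved less. Myog, the transcription factor myogenin that drives muscle differentiation, was at 3.98, 4.18 and 7.08 in db/+ and at 4.10, 4.53 and 5.74 in db/db. Only 101 (7.08) and 111 (5.74) exceeded 4.65, and 111 had a muscle index of 6.81, below that of 7 other arrays. Group means were 4.58 ± 1.11 (SD, n = 7) in db/+ and 4.66 ± 0.56 (SD, n = 6) in db/db, and the difference of 0.08 (SE 0.46) had an adjusted p of 0.92 by limma. Myod1, the factor that commits cells to muscle, ranged from 4.93 to 6.10, with its highest values on 101, 411 and 407. The values carry no detection calls, so such low levels were not separated from background.

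Slow members moved as 1 group, fast members as a looser one, and the pair of groups only partly together. As a description over 13 arrays centred within genotype, the median Pearson r was 0.96 over the 28 slow pairs (lowest 0.74), 0.86 over the 66 fast pairs and 0.37 over the 96 fast and slow pairs. Over all 119142766 pairs of genes the median r was 0.02, and 3.85% were above 0.7. The points of these correlations share array, amplification and normalization. Each of the 8 slow members had its 3 highest values on 101, 404 and 112. Of the 12 fast members, 12 had 101 among their 3 highest arrays, 11 had 411, 9 had 407 and 3 had 112.

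Expressed as the mean log2 deviation from each gene's median, the slow members were at 4.33 on 101, 4.03 on 404, 3.78 on 112 and 2.38 on 103, and at -0.76 to 0.51 on the other 9 arrays. The fast members were at 3.83 on 101, 3.37 on 411, 2.88 on 407, 2.18 on 112, 1.15 on 103 and 1.002 on 404, and at -2.02 to 0.11 on the other 7. The means of the fast and of the slow members had r = 0.44 with each other (n = 13, centred within genotype). Samples 411 and 407, 1 of each genotype, carried fast transcripts while their slow means were -0.53 and -0.60. These lay within the range of arrays with a low muscle index, from -0.76 on 106 to 0.51 on 410.

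**Figure D3:**
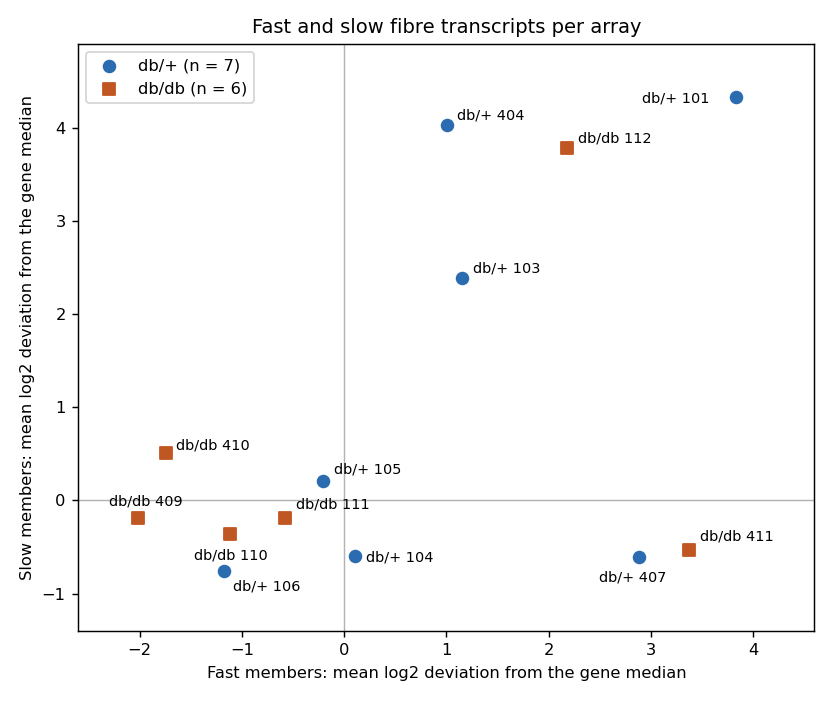
Each point is 1 array, 7 db/+ (circles) and 6 db/db (squares). The horizontal axis is the mean log2 deviation of 12 fast members from their gene medians, and the vertical axis the same for 8 slow members. Sample 101 is high on both axes, 404 is high mainly in slow members, 112 is high on both axes and more so in slow members, and 407 and 411 are high in fast members only.

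A few members departed from their listed class or bridged the classes. Myh2, listed as fast, had r = 0.89 with the slow mean and 0.33 with the fast mean, and was at 6.34 on 407 and 5.46 on 411, low for this gene. Myh1 had 0.77 with the slow mean and 0.85 with the fast mean. Of the 18 members in neither class, 15 had a higher r with the fast mean. Ckm (0.97 against 0.25), Ryr1 (0.98 against 0.32) and Cacna1s (0.91 against 0.09) were the most one-sided of those named here. Sln (0.88 with the slow mean and 0.73 with the fast mean) and Actn2 (0.86 and 0.79) were nearer the slow mean.

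The ratio of fast to slow isoforms was compared between genotypes within each array for 5 partner pairs. It can speak of the fibre mix only on arrays that carried muscle RNA. On db/db 110, for example, Myh4 was at 5.93 and Myh7 at 5.67, both low for these genes. Myh4 minus Myh7 was at -4.23, 0.36 and 5.87 in db/+ and ranged from -2.92 to 6.55 in db/db, with a db/+ mean of 0.43 ± 3.44 (SD, n = 7) and a db/db mean of 0.42 ± 3.29 (SD, n = 6). The differences between genotypes were -0.01 for Myh4 and Myh7, 0.01 for Tnnt3 and Tnnt1, 0.02 for Tnni2 and Tnni1, and -0.01 for Tnnc2 and Tnnc1. Atp2a1 minus Atp2a2 differed by -0.78. Atp2a1 ranged over 6.40 log2 units and Atp2a2 over 1.89, so that this pair mostly followed the level of Atp2a1. Exact two-sided permutation p-values were 0.49 to 0.998, and 0.998 for each pair after Benjamini-Hochberg adjustment over the 5 pairs. The spread is wide, with ranges of 5.80 to 10.8 log2 units over the arrays, so that sizeable shifts would not have been detectable.

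**Figure D4:**
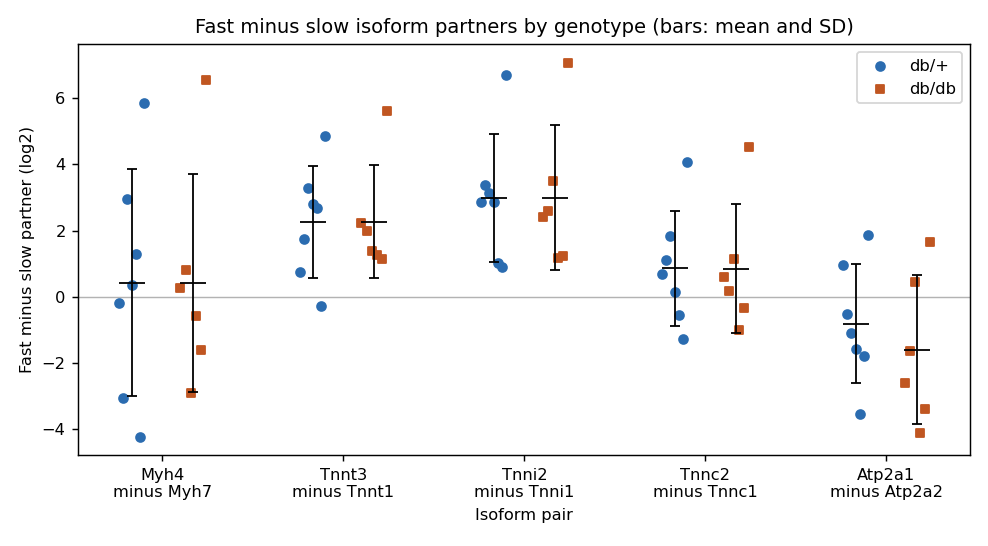
For 5 pairs, each point gives the log2 level of the fast gene minus that of the slow gene on 1 array, for 7 db/+ (circles) and 6 db/db (squares). Horizontal bars are group means and vertical bars SDs. The means of the first 4 pairs differ by at most 0.02 while single arrays differ by up to 10.8.

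Ckm was set against 8 other members over all 13 arrays. Its correlations there were high with the fast genes and Acta1, and low with the slow genes, Myog and Tpm1. Pearson's r was 0.84 with Acta1 (rho 0.78), 0.90 with Myh4 (rho 0.85), 0.96 with Tnnt3 (rho 0.99) and 0.92 with Atp2a1 (rho 0.94). Permutation p-values adjusted over 8 relations were 4e-05 to 0.0005 for these r and 8e-05 to 0.00512 for these rho. With Myh7 (r 0.26, rho 0.20), Tnni1 (0.20, -0.04), Myog (0.29, 0.30) and Tpm1 (0.38, 0.37) the adjusted permutation p was 0.318 to 0.528 for r and 0.336 to 0.907 for rho. Without 411 and 407, the 2 arrays farthest from the median of Ckm, r was 0.88 with Acta1, 0.79 with Myh4, 0.98 with Tnnt3 and 0.96 with Atp2a1. Without them it was 0.87 with Myh7 and 0.85 with Tnni1, so that the low r with slow genes rested on those 2 arrays. Within db/+ alone (n = 7) r was 0.88 with Myh4 and 0.27 with Myh7, and within db/db (n = 6) 0.95 and 0.23.

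The genes outside the list whose levels were most like the muscle index included several known muscle genes. Of the 38 members, 27 had r above 0.7 with the muscle index of the remaining members, against 0.682% of the 15399 other genes. The 11 members below that were Myog, Tpm1, Pvalb, Atp2a2, Tnni1, Myl2, Actn3, Myh4, Myh2, Myh7 and Myod1, with r of 0.50 to 0.68. The 10 non-members with the highest r, over 13 arrays centred within genotype, were Ckmt2 (0.98, mitochondrial creatine kinase), Cox6a2 (0.97, a muscle cytochrome oxidase subunit), Ppp1r27, Apobec2, Klhl41, Itgb1bp2, Klhl40, Alpk3, Hjv and Nrap (0.92). Ckmt2 ran from 3.17 to 10.97 over the arrays and was highest on 112. Adjusted p-values for genotype of these 10 were 0.56 to 0.98 by limma.

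A second list of 45 skeletal muscle genes, of which 39 were measured, shared the pattern in part. Of these 39, 24 had an SD in the top 5% and 23 an r above 0.7 with the muscle index. Others had little relation to it, such as Dmd, which encodes dystrophin (r = -0.19), Mybph (0.02), Chrnd (0.07) and Jph2 (0.18). By limma 1 rose and 38 did not pass, against 13.4% of all genes higher and 25.1% passing in either direction. The gene that rose was Hspb7, a small heat shock protein of heart and muscle, at 4.42 to 6.38 in db/+ and 7.48 to 9.13 in db/db with no overlap. Its difference was 2.87 (SE 0.41, adjusted p = 0.00036), and it was 2.63 (adjusted p = 0.0081) in arrays 404 to 411 alone. Its r with the muscle index was 0.57.

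Developmental and cardiac isoforms, which replace the adult genes in growing or regenerating muscle and in the heart, were measured for 8 of 9. Myl4, the atrial and embryonic essential light chain, rose from 9.05 ± 0.72 (SD, n = 7) to 11.67 ± 0.48 (SD, n = 6), a difference of 2.62 (SE 0.32, adjusted p = 0.00013 by limma). Every db/db value of Myl4 (11.09 to 12.14) was above every db/+ value (8.35 to 10.58). Mybpc3, the cardiac myosin binding protein C, rose by 0.72 (SE 0.19, adjusted p = 0.0158), but had 0.38 (adjusted p = 0.258) without the 4 neuron-rich arrays. In that limma fit Myl7 (-1.48, adjusted p = 0.0134) and Myh8 (-0.56, adjusted p = 0.0177) were lower. Over all arrays Myl7 (-0.65, adjusted p = 0.212) and Myh8 (-0.84, adjusted p = 0.183) did not pass. Embryonic Myh3 was at 8.18 on db/+ 101 and at 3.38 to 4.35 on the other 12 arrays, and perinatal Myh8 at 7.99 on 101 and 4.37 to 5.34 elsewhere. The same array had the highest Myog and the highest Chrna1, the muscle acetylcholine receptor subunit (8.35, next 6.85 on 411).

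Against this spread, genotype changed few members. By limma, 2 of 38 passed, against 25.1% of all genes. Of these 1 rose in db/db (Trdn), as 13.4% of all genes did, and 1 fell (Tpm1), as 11.7% did. The other 36 did not pass, and the lowest adjusted p among them was 0.0648, for Pvalb. None of the 12 fast or 8 slow members passed, with unadjusted p-values under 0.05 for 1 fast member (Pvalb) and 0 slow members. Differences were negative for 32 members and positive for 6, with a median of -0.67 against 0.02 over all genes. Since the members rise and fall together across arrays, these 32 signs are not separate observations. For 28 members the 95% interval of the difference held both -1 and 1, so that a change by a factor of 2 in either direction lay within the error.

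**Figure D5:**
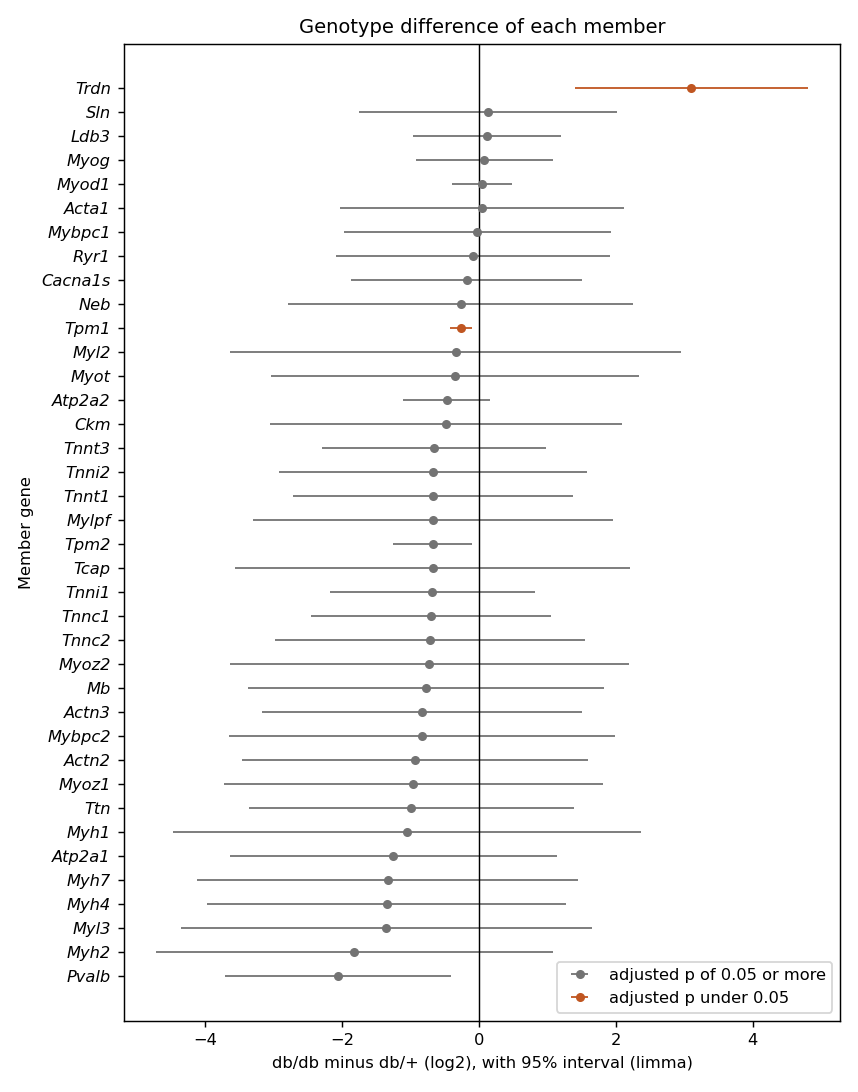
Each row gives the db/db minus db/+ difference in log2 level of 1 member, with its 95% interval from limma, over 7 db/+ and 6 db/db arrays. Orange marks an adjusted p under 0.05. Trdn lies at 3.10 and Tpm1 at -0.27, and most other intervals run several log2 units across 0. The intervals are not adjusted for the number of genes, and those of Pvalb and Tpm2 leave out 0 while the adjusted p is 0.0648 and 0.0825.

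With the mean of the other muscle genes as a covariate, 3 members were lower and 1 higher, the 3 being Tpm1 (-0.26), Tpm2 (-0.62, adjusted p = 0.0319) and Pvalb (-1.91, adjusted p = 0.0289). In that fit 22.9% of all genes passed, 12.3% higher and 10.6% lower in db/db. No myosin, troponin or Z disc member passed in it. The genotype difference was also compared between the 2 number series by an interaction term in limma. No member had an unadjusted p under 0.05, and the lowest adjusted p among members was 0.351. Over all genes, 0 passed at an adjusted p of 0.05 and 15.3% had an unadjusted p under 0.05.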

How the data were processed

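The deposited values are log2 expression levels that the authors made with RMA, per the submitters' processing notes, from 75 ng of amplified total RNA per sample, per the labels' protocols. The sources used here name no array platform, probe set definition or version of RMA. RMA corrects background and normalizes arrays to each other, which compresses differences of dim genes. The values were used as deposited.

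Of 15479 probe sets, 42 Affymetrix controls were left out. A platform table gave 1 symbol to 14801 of the 15437 tested, several to 0 and none to 636. Each member had 1 probe set. Groups follow the labelled genotype. Genotype was fitted over all 13 arrays with lmFit and eBayes of limma 3.58.1 (R 4.3.3); p-values are two-sided and adjusted by Benjamini-Hochberg over 15437 genes, with a threshold of 0.05. Isoform pairs were tested by exact permutation and correlations with Ckm by 100000 permutations (exact within a genotype). Correlations with the muscle index, fast mean or slow mean leave out the gene in question and are descriptions.

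The members and lists were chosen with earlier results of these data known. The rule for named genes gave full values for members past the threshold and for the member of highest SD in each role, and outside the members the 10 genes of highest r with the muscle index and the genes of the second muscle list past the threshold. Pvalb, Tpm2, the fast and slow examples and the developmental isoforms were picked after their values were seen. On simulated data for 15437 genes with 200 changed, the fit recovered 75% of changes of 1 and 88% of changes of 2 log2 units, with 6 false calls. The changed genes were drawn from all genes, with independent noise. The median SD is 0.28 over all genes and 2.10 over the members, so these rates do not apply to the members. Alternatives were other moderation, renewed quantile normalization, median centring, a filter at a mean of 6, array weights, a block for number series or each series apart, leaving out each array or 4 db/+ arrays, muscle and neuronal covariates, and a threshold of 0.01. The muscle covariate joined with the series block, or without the 4 arrays, was added after the data were seen. The rest used scipy 1.17.1, numpy 2.4.6, pandas 2.3.3 and matplotlib 3.10.9 under Python 3.11.15.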

Additional observations from a re-analysis of the deposited data

Results flagged for a closer look

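In 14 of 76 groups tested (38 members in 2 genotypes), the highest array stood apart from the rest of its genotype by more than Dixon's 95% critical value. Chance flags about 1 in 20 groups, and the members move together, so these are not 14 separate events. Array db/db 112 accounted for 7, mostly slow fibre genes: Myl3 at 11.56 (next 6.47), Myoz2 at 11.15 (next 5.89), Myh2 at 11.99 (next 7.46), Myh7 at 10.09 (next 6.01), Tnnt1 at 11.54 (next 8.4), Tnnc1 at 12.04 (next 9.45) and Tnni1 at 9.16 (next 7.41). Array db/db 411 accounted for 4: Myh4 at 11.79 (next 7.16), Actn3 at 12.44 (next 7.85), Pvalb at 13.12 (next 9.93) and Myod1 at 5.88 (next 5.4). Array db/+ 101 stood apart in Mybpc1 at 9.84 (next 7.09) and Myog at 7.08 (next 4.49). Array db/db 111 stood apart in Myog at 5.74 (next 4.64).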

How the results depend on the processing

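The count of members lower in db/db, 1 in the report, was 2 with array weights and with the number series as a block, 3 with the other muscle genes as a covariate and 3 with both that covariate and the block. It was 0 without db/+ 101, 103, 104 and 106, with the neuronal mean as a covariate and at an adjusted p of 0.01, and 0 to 2 when single arrays were left out. It was 0 without 409 or 410, and 2 without 105, 404 or 411. Over all genes, the share lower was 11.7% in the report, 19.1% with array weights and 12.9% with the block. It was 10.6% with the muscle covariate and 12.2% with both. Without db/+ 101, 103, 104 and 106 it was 6.78%, and with the neuronal covariate 7.15%. It was 8.21% without 409, 8.75% without 410, 12.0% without 105, 12.7% without 404 and 8.21% without 411. The share thus fell with the muscle covariate and without 411, where the member count rose. The count of members higher, 1, was 0 in arrays 101 to 112 alone, in arrays 404 to 411 alone, with the neuronal covariate and at an adjusted p of 0.01, and 1 without any single array. Of all genes, 13.4% were higher in the report, 9.85% in arrays 101 to 112, 4.93% in arrays 404 to 411 and 5.73% with the neuronal covariate. The causes were not tested. Under the same settings the differences of Trdn, Tpm1, Tpm2 and Pvalb kept their signs.

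The correlation of Ckm with Acta1 within db/db (n = 6) was 0.86 with an exact permutation p of 0.0653, and that with Myog was -0.06 there (exact permutation p = 0.896). Without the 2 arrays farthest from the median of Ckm, r was 0.87 with Myh7 and 0.85 with Tnni1. The 5 isoform pairs stayed above the threshold in each of 16 settings, of which arrays 404 to 411 alone could give no exact p below 0.2 and so says nothing of stability. No paired analysis was possible because the genotypes share no sample number. The muscle index varied over 4.99 log2 units between arrays, and that spread widens the intervals of the members that follow it.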

Other observations

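The genes whose levels were most like those of Trdn over the 13 arrays, not centred by genotype, were chosen after the values were seen. They were Hspb6 (r = 0.93), Cox5a (0.88), Tpi1 (0.87), Pde2a (0.86) and Anxa5 (0.86). Hspb6, a small heat shock protein of muscle, was higher in db/db by 1.17 (adjusted p = 0.0282 by limma) and ran from 8.85 to 11.77, highest on db/db 112. Pde2a, a phosphodiesterase, was higher by 1.24 (adjusted p = 1.6e-05).

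Genes most like the mean of the fast members, also picked after the values were seen, were Ampd1 (r = 0.99), Klhl40 (0.98), Art1 (0.98), 2310002L09Rik (0.97, from 4.90 to 7.72) and Pgam2 (0.97), all highest on db/db 411. Those most like the mean of the slow members were Csrp3 (0.94), Smtnl1 (0.94), Lmod2 (0.92), Mtag2 (0.83) and Serf1 (0.82), of which Csrp3 was highest on db/+ 103. Limma gave these 10 adjusted p-values for genotype of 0.428 to 0.98.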
